A study of Homo sapiens with 4 samples.

Results

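The cells described here are blastoid cells that carried transcripts of at least 2 of the 4 genes TECRL, RGS5, RGS4 and PRPH and few transcripts of other lineages. A blastoid is an embryo-like structure grown from pluripotent stem cells. A cell was a member if it had at least 500 detected genes, fewer than 3 of the 6 stromal genes POSTN, DCN, MGP, CXCL14, EGFL6 and MFAP4, a sum of fewer than 2 unique molecular identifiers (UMIs, each standing for 1 captured RNA molecule) over the nascent mesoderm genes MESP1, MSGN1, MIXL1 and TBX6, fewer than 2 of the amnion genes TFAP2A, TFAP2B, GABRP, VTCN1 and KRT7, and fewer than 3 of the pluripotency genes POU5F1, SOX2, NANOG, TDGF1 and PRDM14. Of 4240 blastoid cells with at least 500 genes, 1575 were members, out of 9680 such cells in the whole series. The 24 genes of the rule chose the cells, so their values are given as a description and were not tested.

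The study compared single-cell transcriptomes of KhES1, a human embryonic stem cell (hESC) line, with those of blastoids made from the same line. The 2 hESC samples were grown in mTeSR-1 medium on Matrigel. For the 2 blastoid samples, numbered 3 and 4, the cells were first left to aggregate in microwells with the ROCK inhibitor Y27632, the aggregates were embedded in a PNIPAAm-PEG hydrogel under DMEM with serum, and iBlastoid medium followed. The blastoid samples bear D0 in their titles and D9 in the names of their tables, and their descriptions, which call them blastoids, set the group used here. Every cell came from 1 line, and nothing in the labels says whether the samples of a group came from separate cultures. The p-values therefore measure only how well differences between populations repeat in these samples, and that spread may be technical.

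TECRL encodes a reductase-like protein of the endoplasmic reticulum, related to the enzyme of the last step of very long chain fatty acid elongation, and is best known as a gene of inherited arrhythmia expressed in heart. RGS proteins switch off signalling of heterotrimeric G proteins by speeding up GTP hydrolysis on the alpha subunit, and RGS5 is a common marker of pericytes and vascular smooth muscle. PRPH encodes peripherin, an intermediate filament protein of peripheral neurons. Mesenchyme is the loose, migratory tissue that the embryo makes from mesoderm or neural crest, and it is marked by vimentin, fibrillar collagens and factors such as TWIST1 and PRRX1.

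TECRL lies on chromosome 4 at chr4:64275257-64409468, on the minus strand (GENCODE release 29, GRCh38). RGS4, at chr1:163068775-163076802 on the plus strand, and RGS5, at chr1:163111121-163321791 on the minus strand, are neighbours separated by 34318 bases. The annotation also holds a second, non-coding entry under the symbol RGS5 at chr1:163244505-163321894, and how reads were divided between these overlapping entries is not given in the sources used here. PRPH lies at chr12:49293252-49298686 on the plus strand. The 250 bases before the start of TECRL and of the 2 RGS5 starts in RefSeq (GRCh38.p14) are printed because these genes carry the name of the population and because their start regions differ in 2 short motifs. Capitals mark the letters GATAA and TATATA, searched on both strands, with overlapping matches of TATATA counted singly.
TECRL, chr4:64409461-64409710, minus strand: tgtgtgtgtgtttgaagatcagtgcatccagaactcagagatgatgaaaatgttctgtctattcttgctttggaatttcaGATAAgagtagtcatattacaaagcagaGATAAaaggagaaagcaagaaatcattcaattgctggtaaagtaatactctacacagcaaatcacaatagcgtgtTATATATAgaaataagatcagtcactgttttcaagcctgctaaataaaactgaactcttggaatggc
RGS5 inner start, chr1:163202917-163203166, minus strand: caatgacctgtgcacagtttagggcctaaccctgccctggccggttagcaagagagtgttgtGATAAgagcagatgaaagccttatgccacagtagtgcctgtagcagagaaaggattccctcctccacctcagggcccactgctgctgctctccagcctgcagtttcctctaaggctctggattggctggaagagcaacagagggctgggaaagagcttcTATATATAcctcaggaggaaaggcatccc
RGS5 outer start, chr1:163321736-163321985, minus strand: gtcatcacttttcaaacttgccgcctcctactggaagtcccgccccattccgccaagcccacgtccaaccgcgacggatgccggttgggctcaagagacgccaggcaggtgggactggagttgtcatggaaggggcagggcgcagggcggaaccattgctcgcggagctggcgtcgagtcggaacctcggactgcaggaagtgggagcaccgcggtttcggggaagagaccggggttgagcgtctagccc

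The TECRL window held 2 matches of GATAA and 2 overlapping matches of TATATA. At the inner RGS5 start there were 1 GATAA and 2 overlapping TATATA, and at the outer start, 118819 bases away, there was neither. None of the 4 RGS4 windows or the PRPH window held either motif. Among 35116 promoter windows of the same length in the table, 20.4% held GATAA, 3.73% held TATATA and 1.40% held both. These matches describe letters, not sites of binding. The counts are of 3′ ends, so they do not show which RGS5 start was used.

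Members made up a near equal part of both blastoid samples. In blastoid 3, 837 of 2289 cells were members (36.6%, exact 95% interval 34.6 to 38.6%), and in blastoid 4, 738 of 1951 (37.8%, 35.7 to 40.02%), a mean of 37.2% ± 0.891 (SD, n = 2 samples). No hESC met the rule, among 2265 and 3175 cells. TECRL had no row in either hESC table and RGS4 and PRPH had a row in 1 of them, and the tables leave out genes found in few barcodes. Intervals cover counting error only.

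RGS5 and RGS4 led the population, and TECRL was found in a minority of its cells. Over both samples, 1399 of the 1575 members had an RGS5 UMI (88.8%), 1360 an RGS4 UMI (86.3%), 848 a PRPH UMI (53.8%) and 416 a TECRL UMI (26.4%). The pair RGS5 and RGS4 occurred together in 1189 members (75.5%), and all 4 genes were found in 62 members of blastoid 3 and 78 of blastoid 4. The label names TECRL first, but most members showed no TECRL transcript at this depth, with a median of 6206 UMIs per member in blastoid 3 and 8640 in blastoid 4. The cells are therefore called here by the rule, as members.

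Summed over the cells of a population and scaled to counts per 1000000 UMIs of that population (CPM), RGS5 stood at 519 CPM in the members of blastoid 3 and 515 in those of blastoid 4. It stood at 149 and 165 CPM in unmarked cells, which pass every exclusion of the rule but have at most 1 of the 4 markers, at 542 and 583 in stromal cells, which have 3 or more of the 6 stromal genes and pass the other exclusions, and at 51.2 and 34.5 in cells of the amnion gate, which have 2 or more of the 5 amnion genes. RGS5 was thus as high in stromal cells as in members, and hESCs had 4.08 and 5.40 CPM. TECRL stood at 119 and 100 CPM in members, 24.5 and 18.7 in stromal cells, 3.29 and 0.923 in unmarked cells and 3.68 and 1.58 in the amnion gate. Of the 4 genes, TECRL had the widest gap between members and stromal cells. RGS4 measured 284 and 278 CPM in members against 197 and 229 in stromal cells, and PRPH 107 and 139 against 41.5 and 75.7.

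**Figure D1:**
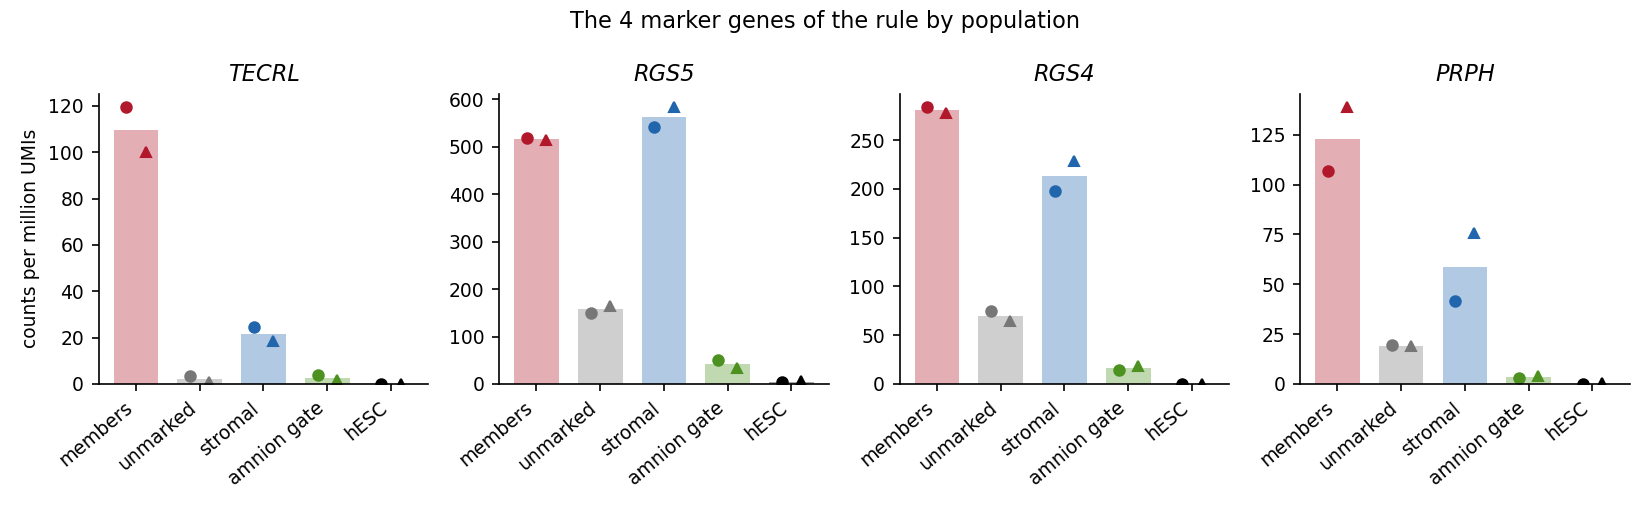
Level of the 4 marker genes, in CPM, in members, unmarked cells, stromal cells, the amnion gate and hESCs; circles are blastoid 3 or hESC 1, triangles blastoid 4 or hESC 2, and bars are the mean of the 2. RGS5 was as high in stromal cells (542 and 583 CPM) as in members (519 and 515), while TECRL was highest in members (119 and 100).

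Shares of cells with a UMI are given next. In blastoid 3 the RGS5 share was higher in members than in stromal cells, although its CPM was not. An RGS5 UMI was found in 88.7% and 89.0% of members of blastoid 3 and 4, in 83.2% and 91.2% of stromal cells, in 17.5% and 14.1% of amnion gate cells, whose median depth was 6749 and 9335 UMIs, and in 2.25% and 2.49% of hESCs, whose median depth was 5793 and 4996. With every cell thinned to 2000 UMIs, RGS5 was found in 55.2% and 58.5% of members against 57.8% and 55.9% of stromal cells. A TECRL UMI was found in 26.2% and 26.7% of members, 5.28% and 7.35% of stromal cells and 1.92% and 0.951% of amnion gate cells. Of the 254 cells of blastoid 3 with a TECRL UMI, 219 were members, and of the 221 in blastoid 4, 197 were. The rule itself requires 2 of 4 transcripts, so this concentration is part of the choice.

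At the boundary of the rule the levels formed a gradient. Cells just inside, with exactly 2 markers (507 and 335 cells), had 431 and 403 CPM of RGS5, and cells just outside, with 1 marker (345 and 189 cells), had 235 and 241 CPM. Those just outside were shallower, with a median of 5769 and 7810 UMIs against 6335 and 8585. Before the exclusions, 1036 cells of blastoid 3 and 896 of blastoid 4 had 2 or more markers, and the stromal genes removed 164 and 104 of these, more than the nascent mesoderm (18 and 16), amnion (14 and 39) or pluripotency genes (3 and 5). Among members kept, 834 had none of the 6 stromal genes, 498 had 1 and 243 had 2.

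Transcripts of the mesenchyme genes PRRX1, HAND1 and LUM were found in most members, but not those of every mesenchyme gene. TWIST1 had only 374 UMIs over the 837 members of blastoid 3 and 518 over the 738 of blastoid 4. PDGFRA had 479 and 405. Such transcripts were not particular to members. Fibrillar matrix genes summed to 4244 and 3693 CPM in members, 3288 and 3204 in unmarked cells and 14406 and 12147 in stromal cells. Lateral plate factors summed to 3934 and 4077, 3293 and 3475.5, and 3652 and 3995 CPM in the same order. VIM (vimentin) stood at 935 and 1079 CPM in members against 163 and 290 in the amnion gate and 35.7 and 30.4 in hESCs. PRRX1, a homeobox factor of limb and lateral plate mesenchyme, stood at 658 and 518 CPM against 19.5 and 20.9 in the amnion gate, and was found in 92.1% and 93.5% of members. HAND1, a bHLH factor of lateral plate and extraembryonic mesoderm, was found in 96.5% and 99.0% of members, but also in 83.3% and 91.9% of amnion gate cells. LUM (lumican, a collagen-binding proteoglycan) was found in 67.1% and 74.4% of members. Members also carried transcripts of simple epithelial keratins: KRT8 stood at 819 and 1042 CPM against 2074 and 2422 in the amnion gate and 140 and 154 in hESCs. This was shared with the populations most like them. Simple epithelium genes summed to 2566 and 3253 CPM in members, 2663 and 3006 in unmarked cells and 3591 and 4152 in stromal cells.

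Several defining markers of other cell types were near 0, but other genes of the same lists were not. Of mural cells, the ion channel subunit ABCC9 stood at 0.538 and 0.597 CPM, MYH11 at 0.359 and 0.149 and the channel KCNJ8 at no more than 8.21, although PDGFRB reached 20.5 and 12.5. Of endothelium, PECAM1 stood at 0.179 and 0.448 CPM and CDH5 at 0 and 0.149. Of neural crest, SOX10 stood at 0.359 and 0 CPM and FOXD3 at 0 in both samples, and of heart muscle, MYH6 at 0.179 and 0. Summed over each whole list, mural cell genes reached 259 and 284 CPM in members against 216 and 219.7 in unmarked cells, cardiomyocyte genes 349 and 343 against 259.6 and 233, endothelium and blood genes 193 and 155 against 215 and 270.01, and neural crest genes 75.2 and 85.9 against 89.9 and 82.6. The mural cell sum was higher in stromal cells (337 and 403 CPM) and in the amnion gate (423 and 469) than in members. The cardiomyocyte sum of stromal cells (310 and 331 CPM) and of the amnion gate (322 and 305) lay between members and unmarked cells. Neither sum therefore set members apart from all the other populations by much. Cardiac actin ACTC1 (106 and 119 CPM) was among the genes well above 0 in members. The 5 amnion genes of the rule summed to 13.8 and 12.99 CPM in members against 55.9 and 47.1 in unmarked cells and 1107 and 1148 in the amnion gate, and the 6 stromal genes to 280 and 248 CPM against 198 and 118 in unmarked cells and 5717 and 4664 in stromal cells.

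The 4 tables held 3487 and 2071 blastoid barcodes with 15682286 and 18193164 UMIs, and 5941 and 7575 hESC barcodes. The 2 blastoid tables shared 1035 barcodes, all of which had at least 500 genes in blastoid 4 and fewer in blastoid 3; 382 of them were members in blastoid 4 and 0 in blastoid 3. Without these barcodes the calls against unmarked cells fell from 640 to 457. A doublet caller marked 0 members of blastoid 3 and 7 of blastoid 4. Mitochondrial UMIs made up a median of 8.64% and 9.91% of a member's UMIs, against 8.80% and 9.99% in unmarked cells.

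Unmarked cells gave the closest comparison by the rule, since both populations pass the same exclusions. Unmarked cells were themselves mixed, and some of them clustered with amnion gate cells, as given below. UMIs were summed per sample and population and tested with edgeR's quasi-likelihood test with the blastoid sample as a block; a gene was called at a Benjamini-Hochberg adjusted p below 0.05. Of 13108 genes tested outside the rule, 640 were called (4.88%): 270 higher in members (2.06%) and 370 lower (2.82%). The median log2 fold change over all of them was -0.01. Members had higher transcripts of contractile proteins, fibrillar collagens and several RGS genes, and lower transcripts of epithelial junction genes. Levels beside a test are scaled CPM, that is CPM after TMM scaling. Because the populations of a sample share its cells and were chosen by transcripts of the same libraries, a p-value tells how well the 2 libraries repeat a difference and no more. Without the block 81 genes were called, and of 58 genes of this comparison followed through every alternative fit, 39 lost their call.

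Contractile genes had the highest median of the 28 gene lists in this comparison. TNNI1, slow skeletal troponin I, had 44.1 and 60.4 scaled CPM in members of blastoid 3 and 4 against 10.7 and 16.1 in unmarked cells, a log2 fold change of 1.96 ± 0.18 (SE; edgeR adjusted p = 1.45e-08). TNNT2, cardiac troponin T, had 34.7 and 30.7 against 12.1 and 13.8 (1.36 ± 0.20, edgeR adjusted p = 2.57e-05), and MYL7, an atrial myosin light chain, 7.91 and 14.5 against 1.12 and 0 (3.86 ± 0.52, edgeR adjusted p = 9.01e-06). In each of these genes both member sums lay above both unmarked sums. Of 17 genes of the cardiomyocyte list tested, 5 rose (also MYL4 by 2.65 and the cardiac actin ACTC1 by 0.71 on the log2 scale) and 1 fell, with a median of 0.48 against -0.01 for all genes. The one that fell was ANKRD1, a stress-responsive ankyrin protein, with 4.21 and 6.38 against 45.2 and 9.67, so most of its fall came from blastoid 3 (log2 ratio -0.53 without that sample). Of 12 mural genes tested only the smooth muscle actin ACTA2 was called, with 42.1 and 65.7 against 19.4 and 22.6 (log2 fold change 1.33 ± 0.15, edgeR adjusted p = 5.29e-07).

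Most of the contractile difference was not called without the members that had a TECRL UMI. With those 416 cells left out, the cardiomyocyte list had 1 gene called higher and 1 lower. TNNI1 stayed at 1.28 ± 0.20 (edgeR adjusted p = 6.37e-05), whereas MYL7 stood at 1.96 (adjusted p = 0.202), MYL4 at 1.48 (0.427), TNNT2 at 0.51 (0.299) and ACTC1 at 0.10 (0.838). ACTA2 was still called at 0.74.

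Fibrillar matrix genes were split. LUM had 526 and 622 scaled CPM in members against 232 and 311 in unmarked cells (log2 fold change 1.09 ± 0.07, edgeR adjusted p = 5.21e-11), and COL3A1, type III collagen, 743 and 601 against 437 and 397 (0.69 ± 0.09, edgeR adjusted p = 4.16e-06). Neither gene overlapped between the populations. COL5A1 (0.63), COL1A1 (0.61), COL1A2 (0.52) and SPARC (0.38), the last a collagen-binding glycoprotein, also rose, while BGN, TNC and the fibronectin gene FN1 fell by 1.21, 0.58 and 0.54 on the log2 scale: 6 higher and 3 lower of 19, with a median of 0.09. Without the block none of the 19 was called. Without the members with a TECRL UMI, LUM (0.73), COL3A1 (0.44) and COL1A1 (0.40) were still called.

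Within the RGS family, 3 genes that the rule did not use were higher in members and 1 was lower. RGS4 and RGS5 belong to the rule, so their own rise over unmarked cells was part of the choice. RGS1 had 18.0 and 16.2 scaled CPM in members against 4.49 and 2.76 in unmarked cells (log2 fold change 2.17 ± 0.28, edgeR adjusted p = 4.85e-06), RGS13 11.9 and 11.9 against 1.97 and 1.84 (2.60 ± 0.35, edgeR adjusted p = 1.01e-05), and RGS2 124 and 137 against 68.5 and 83.4 (0.78 ± 0.10, edgeR adjusted p = 5.78e-06). These 3 genes lie on the plus strand of chromosome 1 in the order RGS1 (chr1:192575727-192580031), RGS13 (chr1:192636138-192660306) and RGS2 (chr1:192809039-192812283), within 236557 bases. RGS16 went the other way, with 5.72 and 10.5 against 16.01 and 21.2 (log2 fold change -1.19). Of 11 RGS genes tested, 3 rose and 1 fell, with a median of 0.05; of 21 heterotrimeric G protein genes, on whose products RGS proteins act, 2 rose and none fell. RGS13 was no longer called without the members that had a TECRL UMI (0.94, edgeR adjusted p = 0.453), while RGS1 was (1.53). None of 12 genes of very long chain fatty acid elongation, the pathway to which TECRL's relatives belong, was called in either direction (median -0.06). With 4.88% of all genes called in this comparison, so short a list would hold few calls in any case. Against all other blastoid cells 4 of the 12 were lower and none higher, beside 13.1% and 7.44% of all genes.

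**Figure D2:**
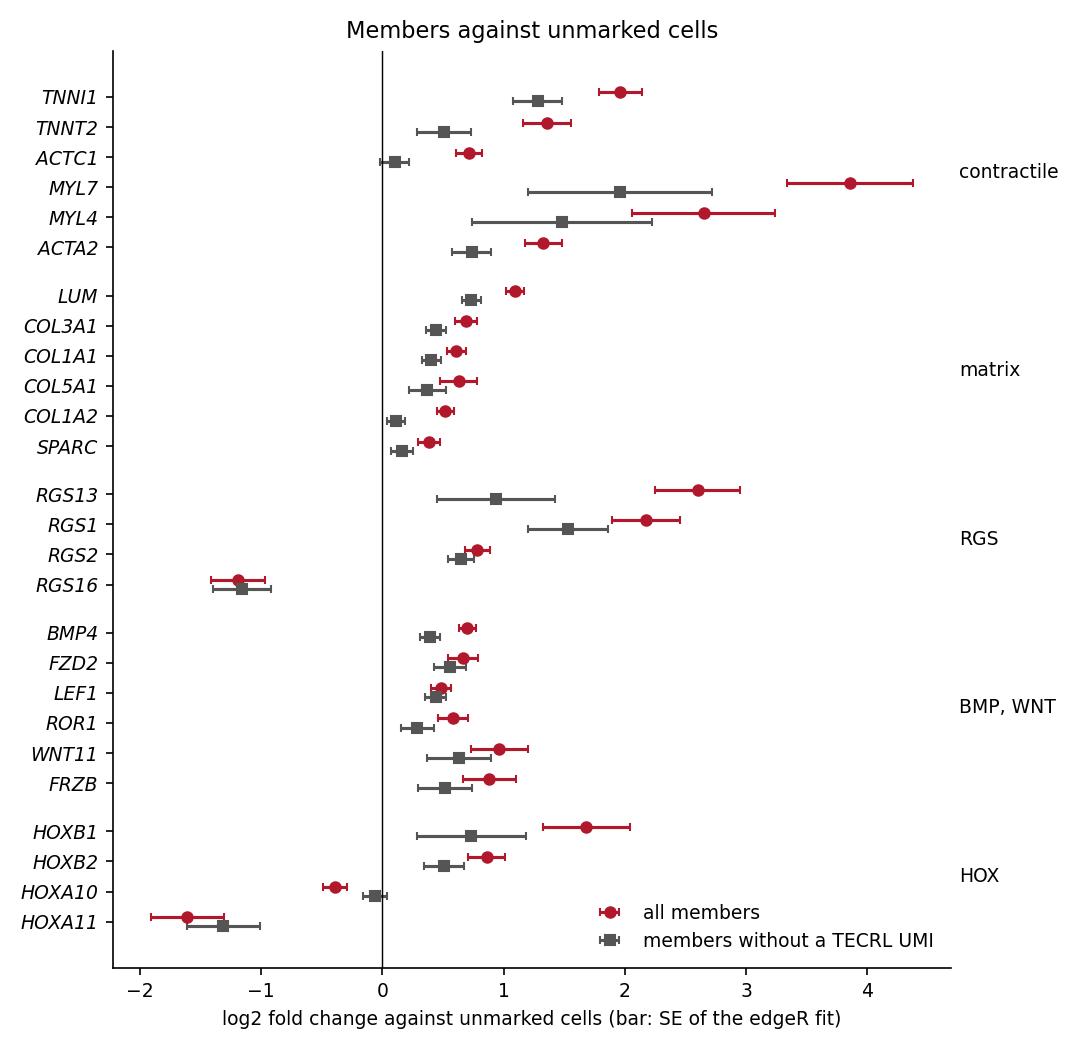
Log2 fold change of members against unmarked cells for called genes of 5 groups (bars: SE of the edgeR fit), for all members (circles) and for members without a TECRL UMI (squares). ACTC1 falls from 0.71 to 0.10 and HOXA10 moves from -0.39 to -0.06 when the cells with a TECRL UMI are left out, while RGS16 and LEF1 hardly move.

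Signalling genes moved in both directions. BMP4, the bone morphogenetic protein ligand, had 249 and 246 scaled CPM in members against 151 and 154 (log2 fold change 0.70 ± 0.07, edgeR adjusted p = 1.27e-07), but the target genes ID1, ID3 and ID4 fell by 0.47, 0.57 and 0.60 on the log2 scale. Of 20 BMP pathway genes 1 was higher and 4 were lower, with a median of -0.03. Of 25 WNT pathway genes, 5 rose (WNT11 0.96, the decoy receptor FRZB 0.88, the receptor FZD2 0.66, the co-receptor ROR1 0.58 and the nuclear factor LEF1 0.48) and WNT4 and WNT6 fell, with a median of 0.33. LEF1 had 208 and 176 against 150 and 125, with no overlap. WNT4 stood at 0.505 and 0.445 in members against 3.37 and 2.30, a level of few molecules.

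TMEM88 and CYB5D1, adjacent genes on chromosome 17, rose together. TMEM88, a membrane protein known as an inhibitor of WNT signalling in heart precursors, had 498 and 705 scaled CPM in members against 238 and 393 (log2 fold change 0.95 ± 0.07, edgeR adjusted p = 9.32e-11), and CYB5D1, a cytochrome b5 domain protein, 171 and 177 against 70.2 and 100 (1.06 ± 0.10, edgeR adjusted p = 3.74e-08). For both genes the members were higher in each sample. KDM6B, a histone H3 lysine demethylase, rose by 0.49. KDM6B (chr17:7839904-7854796), TMEM88 (chr17:7855065-7856099) and CYB5D1 (chr17:7857746-7862282) lie in this order on the plus strand, 268 and 1646 bases apart, and whether reads past the end of one gene were counted to the next was not tested.

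PLAT, tissue plasminogen activator, was the second largest rise among genes whose fitted log2 CPM averaged 5 or more and whose sums did not overlap: 73.5 and 85.3 scaled CPM against 22.8 and 25.8 (log2 fold change 1.71 ± 0.14, edgeR adjusted p = 1.85e-09). It stood at 0.69 without the members with a TECRL UMI (adjusted p = 0.0103). The collagen receptor DDR2 (1.34), ART5 (1.23), the axon guidance ligand SEMA5A (1.17) and ARHGAP28 (1.13) followed, each without overlap. Of 19 lateral plate factors, PRRX1 (0.44), SNAI2 (0.54) and HAND1 (0.37) rose, 16 were not called (median 0.19), and without the block none was called. Under the same 2 limits the largest falls were CYP1B1 (-4.15, 0.842 and 1.48 against 19.1 and 24.0), HPGD (-3.46), TRIML2 (-2.64), the muscle ankyrin repeat gene ANKRD1 (-2.45; 4.21 and 6.38 against 45.2 and 9.67), RAB25 (-2.44), CLDN4 (-2.39) and CLDN7 (-2.39). EPCAM, the epithelial adhesion molecule, had 11.8 and 11.6 against 62.6 and 53.9 (-2.32). In all, 10 of 16 simple epithelium genes fell and 2 rose, with a median of -0.70. The 5 amnion genes of the rule were also lower in members, as given above, and some unmarked cells clustered with the amnion gate. The part of these cells in the falls was not tested.

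Of 52 G2 and M phase genes, 9 were called higher in members and none lower (median 0.22), and of 36 S phase genes none was called either way. With all cells thinned to 2000 UMIs before the rule was applied, 0 of the 52 were higher and 3 were lower. Thinning also changed the membership, from 837 and 738 members to 391 and 378, and from 603 and 309 unmarked cells to 1362 and 1060, so the parts of depth and membership cannot be told apart. CENPF, a kinetochore protein, had 1139 and 1083 scaled CPM in members against 887 and 862 in unmarked cells.

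Members with and without a TECRL UMI differed in several groups of genes, among them contractile, fibrillar matrix and HOX genes. This split was made after values had been seen, and it compares 219 and 197 cells with a TECRL UMI (median 5558 and 8078 UMIs) with 618 and 541 without (median 6411 and 8805), so it is given as levels in CPM with no test. A gene was counted where the ratio of CPM + 1 was at least 1.5 in both samples, among genes with at least 20 UMIs in each sample. Of 11618 such genes, 384 were higher (3.31%) and 230 lower (1.98%) in cells with a TECRL UMI. In the neural crest list 3 of 3 genes were lower. In the list of neuronal and intermediate filaments 3 of 10 were lower and 1 was higher.

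Among contractile genes, 6 of 13 of the cardiomyocyte list and 4 of 10 of the mural list were higher. ACTC1 stood at 221 and 239 CPM with a TECRL UMI against 69.2 and 76.8 without, TNNT2 at 88.9 and 70.7 against 20.4 and 17.1, and MYL7 at 28.2 and 45.8 against 2.13 and 3.82. The smooth muscle gene TAGLN stood at 48.2 and 82.3 against 13.5 and 11.1. VIM, at 1499 and 1801 CPM against 755 and 828, and 9 of 16 fibrillar matrix genes with none lower, went the same way; COL1A2 stood at 616 and 496 against 271 and 207.

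RGS5 itself stood at 815 and 853 CPM with a TECRL UMI against 425 and 398 without, whereas RGS4 (268 and 303 against 289 and 269) and PRPH (98.6 and 130 against 110 and 142) lay close together. RGS5 belongs to the rule, which asks less of the other markers where TECRL is present. RGS13 stood at 41.5 and 34.2 against 3.55 and 4.22, and RGS1 at 37.8 and 37.1 against 13.3 and 9.05. The largest ratios in both samples belonged to CALB2 (the calcium-binding protein calretinin), NPNT (an integrin ligand, 143 and 77.7 against 13.3 and 5.63) and SEMA3C (a semaphorin of outflow tract development, 79.3 and 47.0 against 5.92 and 3.82). BMP4 stood at 411 and 406 against 219 and 193, and the receptor LGR5 at 16.3 and 8.12 against 3.32 and 1.81.

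HOX genes encode homeobox factors whose position in each cluster follows their place along the body axis, with low numbers in front. In cells with a TECRL UMI, HOXB1 stood at 25.2 and 34.8 CPM against 6.16 and 6.44, and HOXB2 at 64.5 and 93.3 against 32.2 and 41.6. HOXA9 stood at 7.41 and 12.8 against 76.7 and 77.0, HOXA10 at 14.1 and 23.2 against 107 and 85.1, and HOXB9 at 31.9 and 34.2 against 128 and 102. HOXB3 lay close together (105 and 87.5 against 119 and 77.8). Of 24 HOX genes, 2 were higher (HOXB1 and HOXB2) and 11 lower, among them the low-numbered HOXA3 (2.22 and 1.16 against 16.8 and 3.82), so number alone did not order them. TBX4, a hindlimb and lung mesenchyme factor, stood at 0.741 and 0 CPM against 6.16 and 5.43.

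**Figure D3:**
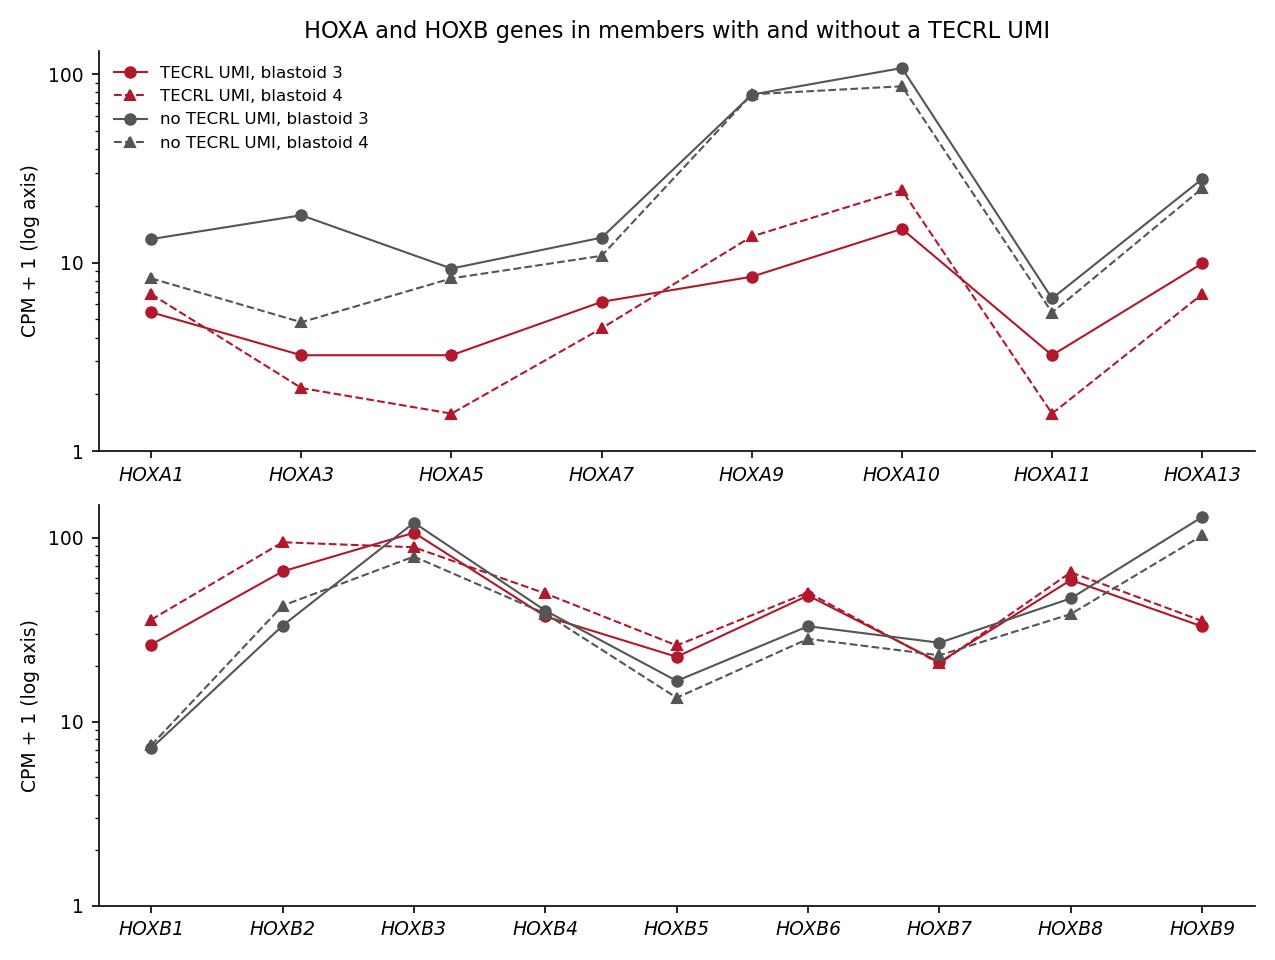
Levels of HOXA and HOXB genes (CPM + 1, log axis) in members with (red) and without (grey) a TECRL UMI in blastoid 3 (circles, solid) and blastoid 4 (triangles, dashed). HOXA9, HOXA10 and HOXB9 lie lower with a TECRL UMI, HOXB1 and HOXB2 lie higher, and HOXB3 overlaps.

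When all members were set against unmarked cells, 5 HOX genes were called. HOXB1 had 10.1 and 13.6 scaled CPM in members against 1.40 and 6.91 (log2 fold change 1.68 ± 0.36, edgeR adjusted p = 0.00373), HOXB2 rose by 0.86, HOXA11, HOXC4 and HOXA10 fell by 1.61, 0.85 and 0.39, and 20 of 25 were not called (median -0.26). HOXC4 was not among the HOX genes counted as higher or lower with a TECRL UMI, and HOXA9 and HOXB9, which were, are not among these 5. Without members with a TECRL UMI, none rose and 1 fell, and without the block none was called. HOX genes had no row in the hESC tables.

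Blastoid cells clustered without the 24 genes of the rule gave 13 clusters, none of which matched the members. Clusters 0, 2 and 3 held 480, 390 and 325 members, and in each of them members mixed with unmarked cells. Cluster 4 held 89 members (57 of blastoid 3 and 32 of blastoid 4) beside 223 stromal cells. Cluster 9 held 8 members beside 137 stromal cells. Cluster 6 was the one richest in members, with 204 of its 248 cells (82.3%), and it held 161 of the 416 members with a TECRL UMI (38.7%) against 3.71% of the others. In both samples it held a large part of them, 91 cells of blastoid 3 and 70 of blastoid 4. No member lay in clusters 1, 8, 10 or 12, and cluster 7 held 51 members of blastoid 3 and 3 of blastoid 4. Clusters 1, 5 and 10 were mostly amnion gate cells (632 of 696, 279 of 331 and 63 of 75). They also held 60, 45 and 12 unmarked cells, against 0, 5 and 0 members. Cluster 7 held 94 unmarked cells and cluster 8 held 29.

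Stromal cells, which shared RGS5 and RGS4 with members, differed from them in matrix and in HOX and WNT genes. Of 13108 genes outside the rule, 2484 were called (19.0%), 1072 higher in members (8.18%) and 1412 lower (10.8%); scaled by library size alone, 1437 were higher and 1201 lower. Of 19 fibrillar matrix genes, 14 were lower in members and 1 higher, with a median of -1.34 against 0.01 for all genes. FN1 had 115 and 93.3 scaled CPM in members against 462 and 326 in stromal cells (log2 fold change -1.93 ± 0.09, edgeR adjusted p = 3.95e-15). The stromal gate itself uses matrix genes, so this direction is close to the choice of cells. The stromal sums also rest on fewer cells, 303 and 136.

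The largest falls were in secreted factors. SST, the neuropeptide somatostatin, had 11.3 and 4.45 scaled CPM in members against 375 and 298 in stromal cells (log2 fold change -5.44 ± 0.14, edgeR adjusted p = 8.01e-21), STC1, a stanniocalcin, 17.7 and 11.9 against 275 and 198 (-3.99), and HGF, hepatocyte growth factor, 52.8 and 28.0 against 495 and 229 (-3.15). IGFBP3 (-3.54), SLN (-3.53), STMN2 (-2.79), PDPN (-2.73) and ADAMTS9 (-2.62) followed. None of these overlapped between the populations.

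Genes higher in members than in stromal cells included HOXB, BMP target and WNT genes. HOXB3 had 109 and 79.8 scaled CPM against 25.7 and 29.4 (log2 fold change 1.84 ± 0.16, edgeR adjusted p = 6.52e-10), and HOXB-AS3 291 and 310 against 41.0 and 59.8 (2.64 ± 0.12, edgeR adjusted p = 1.83e-15). HOXB-AS3 (chr17:48549630-48606414, plus strand) overlaps HOXB3 (chr17:48548870-48604912, minus strand), and how the counting treated strand is not given in the sources used here, so the 2 cannot be fully told apart. HOXB1 had 152 UMIs in members and none in stromal cells, at least 13.1-fold higher against a floor of 3 counts over the group. HOXA11, HOXA13 and HOXA10 were lower in members, by 3.04, 1.76 and 0.71 on the log2 scale. Of 25 HOX genes, 10 were higher and 3 lower, with a median of 0.88.

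Other large rises over stromal cells were CCBE1, a secreted factor of lymphatic development (log2 fold change 3.46, 42.1 and 35.7 scaled CPM against 3.95 and 2.60), the endocytic receptor LRP2 (2.76), PCAT14 (2.68), MIR205HG (2.54) and the epithelial cadherin CDH1 (2.42; 35.3 and 29.8 against 7.90 and 3.46). The stromal sums behind them are small: LRP2 had 2 and 4 UMIs there, MIR205HG 3 and 3, CCBE1 8 and 3. Without blastoid replicate 3 the log2 fold change was 1.64 for LRP2, 1.88 for PCAT14 and 1.56 for MIR205HG, LRP2 was no longer called without the members that had a TECRL UMI (1.23), and PCAT14 (1.13), MIR205HG (2.84) and CDH1 (1.34) were not called after thinning to 2000 UMIs. Cells of the amnion gate had 381 and 281 CPM of CDH1 and so lay above both member samples.

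ID1 (1.15), ID2 (0.91) and ID3 (1.30), targets of BMP signalling, and the homeobox genes MSX1 (0.93) and MSX2 (1.02) were higher in members; 8 of 20 BMP pathway genes were higher and 5 lower (median 0.45). ID3 had 136 and 206 scaled CPM against 52.4 and 90.1, without overlap. WNT5A, a non-canonical WNT ligand, had 359 and 269 against 115 and 159 (log2 fold change 1.25 ± 0.13, edgeR adjusted p = 2.04e-08), WNT5B rose by 1.92, SFRP1 by 1.99 and LEF1 by 1.19, while FRZB and the WNT agonist RSPO2 fell by 2.61 and 1.91: 10 of 25 were higher and 5 lower (median 0.54). PRRX1 rose by 1.07, whereas TWIST1 and OSR1 fell by 1.02 and 1.99, so lateral plate factors were split, 5 higher and 5 lower of 19 (median -0.08).

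In the RGS family, RGS1 had 18.0 and 16.2 scaled CPM in members against 4.94 and 5.20 in stromal cells (log2 fold change 1.78 ± 0.32, edgeR adjusted p = 0.000144) and RGS2 rose by 0.45, while RGS16, RGS3 and RGS13 fell by 1.65, 0.89 and 0.73; the other 6 of 11 were not called, with a median of 0.01. RGS13 had 11.9 and 11.9 against 17.8 and 22.5, so unlike RGS1 it was shared with stromal cells. TNNT2 was lower in members (34.7 and 30.7 against 71.6 and 52.8, log2 fold change -0.97) and ACTC1 higher (99.3 and 118 against 51.9 and 73.6, log2 fold change 0.82). None of the 12 fatty acid elongation genes was called, beside 19.0% of all genes.

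**Figure D4:**
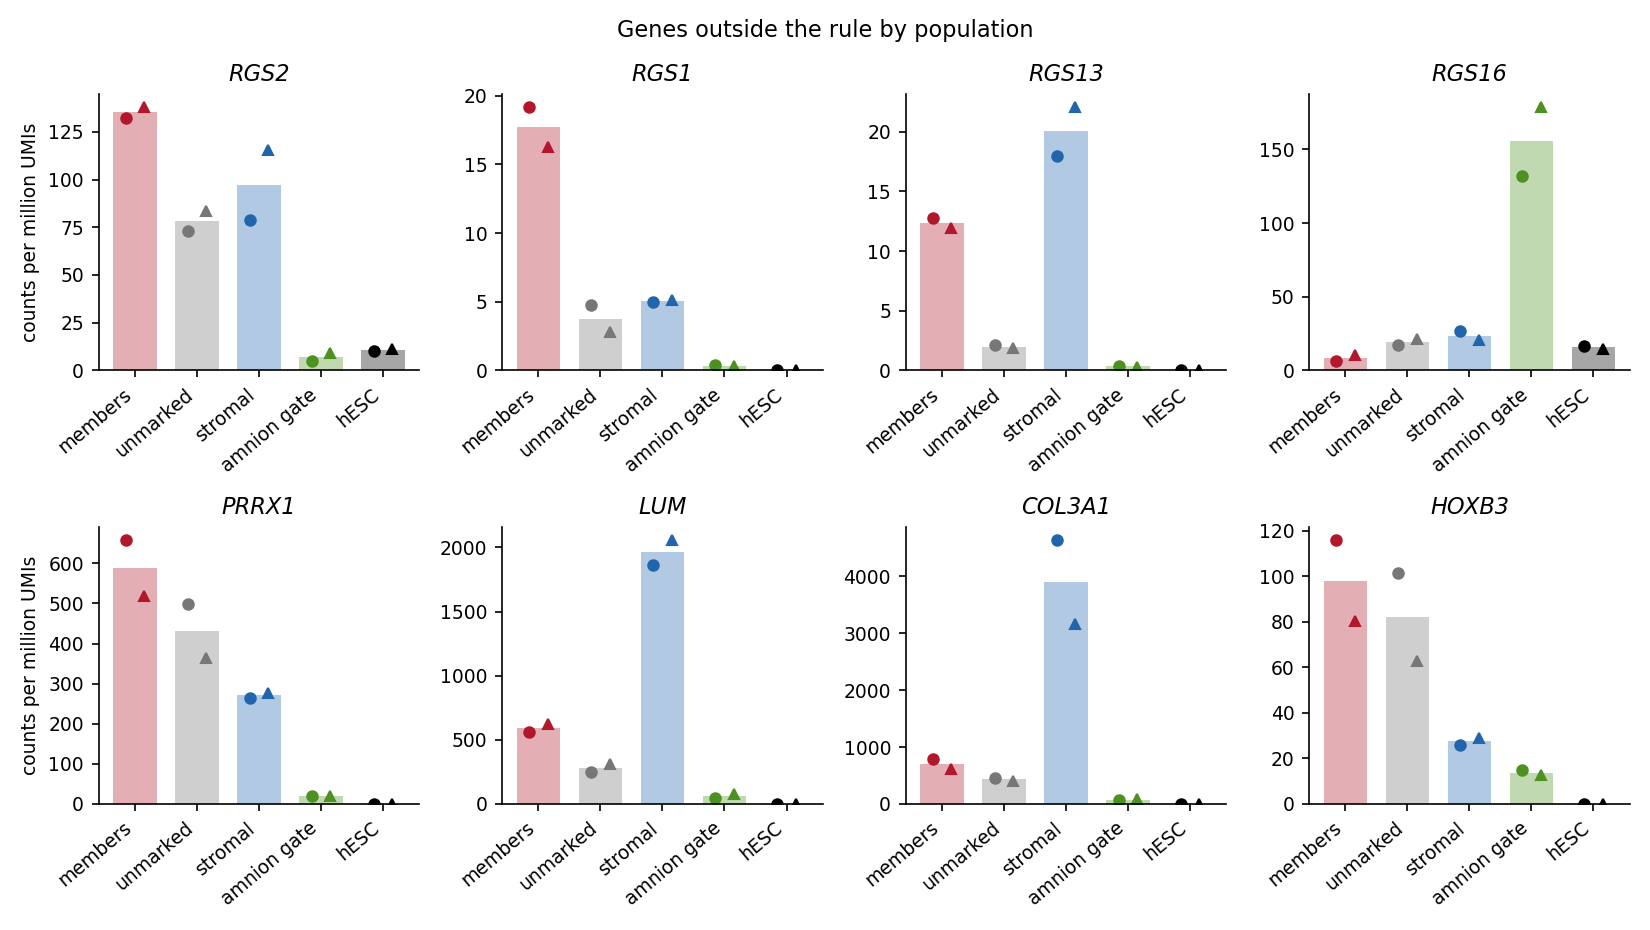
Level in CPM of 4 RGS genes and of PRRX1, LUM, COL3A1 and HOXB3, all outside the rule. Populations are members, unmarked cells, stromal cells, the amnion gate and hESCs (circles blastoid 3 or hESC 1, triangles blastoid 4 or hESC 2, bars their mean). RGS1 was highest in members, RGS13 and LUM in stromal cells, RGS16 in the amnion gate, and COL3A1 was far higher in stromal cells than in members.

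Against all other blastoid cells, 2665 in number, 3016 of 14651 genes were called (20.6%), 1090 higher in members (7.44%) and 1926 lower (13.1%). The others were 365 and 631 amnion gate cells, 603 and 309 unmarked, 303 and 136 stromal and 181 and 137 cells that fitted several gates or another one. Their makeup differed between the samples, and many falls were of epithelial genes: 15 of 16 simple epithelium genes were lower and 1 higher, with a median of -2.06 against 0.01 for all genes. EPCAM had 11.9 and 11.9 scaled CPM in members against 172 and 299 (log2 fold change -4.28 ± 0.17, edgeR adjusted p = 2.59e-07). CYP1B1 (-6.47), PAPPA2 (-6.01), IGFBP7 (-5.17) and HPGD (-4.96) fell furthest among named genes together with LINC01356 (-5.20).

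Among genes whose fitted log2 CPM averaged 5 or more without overlap, PLAT had the largest rise here, with 74.6 and 87.5 scaled CPM in members against 22.6 and 16.5 in the others (log2 fold change 2.06 ± 0.16, edgeR adjusted p = 1.56e-05). CYB5D1 (2.02; 174 and 181 against 46.4 and 41.3) and TMEM88 (1.85; 505 and 724 against 163 and 174) came next, and KDM6B beside them rose by 0.88. TNNI1 (1.70), ART5 (1.48), the WNT inhibitor APCDD1 (1.47), the receptor phosphatase PTPRD (1.41), DDR2 (1.40) and the protocadherin PCDH17 (1.39) also stood among the largest rises, of which APCDD1 was not called after thinning (0.56). PRRX1 had 625 and 528 against 252 and 134 (log2 fold change 1.64 ± 0.13, edgeR adjusted p = 2.30e-05), and so did the long noncoding gene Z97200.1 within its bounds (chr1:170667381-170669425, same strand; log2 fold change 1.70), whose reads may not be separable from those of PRRX1 (chr1:170662728-170739419). Of 19 lateral plate factors, 12 rose and 1 fell (median 0.68), and of 26 HOX genes 14 rose and 1 fell (median 0.75). RGS1 (3.09), RGS2 (1.63) and RGS13 (1.54) rose and RGS16 (-3.30) and RGS10 (-0.92) fell, 3 and 2 of 12. RGS16 had 5.80 and 10.8 in members against 48.4 and 117, and it was highest in the amnion gate.

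Cell cycle and stress lists shifted in this comparison. Of 52 G2 and M phase genes, 38 were higher in members and none lower (median 0.42), but none was called with cells thinned to 2000 UMIs. Of 19 immediate early genes, 13 were lower and none higher (median -0.67), and of 21 hypoxia and glycolysis genes 11 were lower and 1 higher (median -0.60). The same lists had 1 and 1 of 19, and 3 lower and none higher of 21, against unmarked cells.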

How the data were processed

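Single-cell 3′ libraries of 2 hESC and 2 blastoid samples were made with a 10x Genomics Chromium Next GEM kit, per the labels' protocols. For every sample the authors deposited raw UMI counts, genes by barcodes, made with Cell Ranger on GRCh38, per the submitters' processing notes; the version and gene annotation are not given in the sources used here. No deposited barcode had over 20% mitochondrial counts.

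Cells with at least 500 genes were kept, and doublets were scored with Scrublet in scanpy 1.11.5 and left in. Counts were summed per sample and population and tested with edgeR 4.0.16 (TMM, quasi-likelihood, filterByExpr, blastoid sample as block, Benjamini-Hochberg adjustment) after a check on simulated data. The comparisons with unmarked and stromal cells shared 1 fit over 4 populations (3 residual degrees of freedom); that with all other cells had 1. The block pairs sums of 1 library. Named genes were those of the rule, those of 28 gene lists, and, per direction, the 12 or 8 called genes that moved most without overlap (fitted log2 CPM averaging 5 or more). The members and the lists were chosen with earlier results of these data known. Clustering used leidenalg 0.10.2. Intervals are exact (Clopper-Pearson). Some genes of the lists are not reported here.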

Additional observations from a re-analysis of the deposited data

Results flagged for a closer look

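Among barcodes with fewer than 500 genes, which entered no comparison, 16 of 1198 in blastoid 3 carried at least 2 of the 4 markers (1.34%, exact 95% interval 0.765 to 2.16%). A count above 3 was flagged, and that limit is not a background level. None of 3676 and 4400 such hESC barcodes did, but TECRL has no row in either hESC table and RGS4 and PRPH have one in only 1, so that 0 gives no background level. Of the 16, 11 had the same barcode sequence as a member of blastoid 4. Of all 1198, 1035 shared a sequence with a cell of blastoid 4, and 382 with a member there. Among barcodes of blastoid 4 with fewer than 500 genes, 2 of 120 carried at least 2 of the 4 markers.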

How the results depend on the processing

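The number of calls depended on the fit more than the direction of the genes did. Against all other cells, 3016 calls became 978 with DESeq2, 752 without the replicate block, 1324 with a log2 fold change past 1 and 792 after thinning to 2000 UMIs. Against stromal cells, 2484 became 1131, 735, 823 and 660 in the same order, and against unmarked cells 640 became 208, 81, 285 and 400. Fitting only the 2 populations compared gave 1001 against unmarked cells. Over the gene lists, 228 calls against all other cells became 112, 64, 101 and 100, the 164 against stromal cells 104, 80, 88 and 77, and the 93 against unmarked cells 38, 14 and 35 with the first 3 of these. The block is the blastoid sample, which both populations of a pair share, and without it the spread between samples enters the test.

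The member share of 37.2% became 17.5% with 3 markers required, 38.2% with at least 1000 genes and 18.9% after thinning. By sample it ranged from 36.6 to 37.8% under the main rule. With 3 markers required the samples lay further apart, with 330 of 2289 cells in blastoid 3 and 403 of 1951 in blastoid 4. Over all calls of the main fit that kept a value, thinning reversed the sign of 216 of 2399 against all other cells. It reversed 109 of 2201 against stromal cells and 34 of 537 against unmarked cells. Requiring 3 markers reversed 13 of 2965, 2 of 2483 and 7 of 633 in the same order. Leaving out members with a TECRL UMI reversed 6 of 2975, 7 of 2483 and 7 of 639. Among the named genes followed through these fits, RGS13 changed sign against all other cells without the members that had a TECRL UMI (-0.10). In that comparison HOXB9 (-0.080) and COL3A1 (0.30) changed sign after thinning, and COL3A1 with 3 markers (0.14). Thinning also changed the sign of RGS13 against stromal cells (0.053) and of FN1 (0.054) and CENPF (-0.0780) against unmarked cells. TNC changed sign against unmarked cells with 3 markers (0.12). The cause was not tested. Leaving out the barcodes found in both blastoid tables and leaving out members with a TECRL UMI were chosen after seeing the data. With 1 blastoid sample left out no residual degree of freedom remained, so no calls were made.

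Members and unmarked cells differed in depth, and 2 libraries limit every p-value. A low share of TECRL at these depths does not show that a cell lacks the transcript.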

Other observations

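Growth factor genes were split between members and unmarked cells, with 3 of 19 genes for PDGF, FGF, HGF and IGF ligands, receptors and binding proteins called higher in members and 5 lower by edgeR (median log2 fold change -0.24). Of 13 basement membrane genes 1 was higher and 1 lower, and of 9 genes each of the NOTCH and hedgehog pathways 1 was higher and 1 lower, while none of 9 retinoic acid pathway genes was called. In 6 lists of other cell types no gene was higher: endoderm had 3 of 5 lower, endothelium and blood 2 of 7, pluripotency 2 of 12, neuronal filaments 1 of 10, neural crest 1 of 4 and nascent mesoderm 1 of 6. Over all genes tested, 2.06% were higher and 2.82% lower. At that share, short lists with no gene higher do not set members apart.

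Against stromal cells, 7 of 13 basement membrane genes were lower in members and none higher (median -0.38), and 7 of 12 pluripotency genes were higher and 1 lower (median 0.56). Over all genes tested in that comparison, 8.18% were higher and 10.8% lower. The pluripotency list summed to 1109 and 902 CPM in members against 843 and 784 in stromal cells. Its sum was higher than in members in unmarked cells (1297 and 994 CPM), the amnion gate (1292 and 1008) and hESCs (5034 and 5301). The pluripotency genes of the rule, summed apart from this list, went the other way, with 10.2 and 16.7 CPM in members against 26.0 and 36.6 in stromal cells. The neural crest list had 3 of 4 genes higher, with a summed level of 75.2 and 85.9 CPM in members and no more than 22.1 CPM in either stromal sum. The same sum was 89.9 and 82.6 CPM in unmarked cells and 88.1 and 83.8 CPM in hESCs.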
